A study of Drosophila melanogaster with 24 samples.

Results

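Embryos with activated Notch were compared between embryos aged 7 to 8 h after egg laying (late window) and embryos aged from 5 h 45 min up to 6 h 45 min (early window), to ask which developmental changes in transcript level still took place. The comparison used 6 of the 24 arrays of the study, 3 from each window, chosen by their sample labels and not by any measured value. The study activated Notch, Ras or both in whole Drosophila melanogaster embryos and measured transcripts on Affymetrix DrosGenome1 arrays. Its 4 crosses were each sampled in both windows with 3 arrays, which gave 8 groups.

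All 24 samples came from mothers homozygous for arm-GAL4, in which the armadillo promoter drives the yeast activator GAL4 in most cells of the embryo. Fathers of the Notch embryos were homozygous for UAS-NotchICD, the intracellular part of the receptor, which enters the nucleus and acts without ligand. Control embryos had w1118 fathers and carried the driver with no responding transgene. Ras embryos had fathers homozygous for UAS-Ras1V12 (Ras85D(V12) in the sample labels), a Ras GTPase locked in its active form, and the Notch plus Ras embryos had fathers homozygous for both transgenes. Eggs were laid over 1 h and aged at 25 °C, and the labels give stages 10 to 11 for the early and 11 to 12 for the late window. Each collection pooled about 500 embryos, and the RNA came from independent experiments. In whole embryos, fewer cells of a type and less RNA per cell cannot be told apart.

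Notch is a receptor through which neighbouring cells settle on different fates. In the ectoderm of the fly embryo it keeps most cells of a proneural cluster from becoming neuroblasts, largely through the basic helix-loop-helix repressors of the Enhancer of split complex, and it also acts in muscle founder choice and in many epithelia. Between the windows compared here the germ band reaches its full extension and begins to shorten, neuroblasts divide, the tracheal and salivary placodes invaginate, myoblasts begin to fuse, and epithelia begin to build septate junctions and apical matrix.

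The values are log2 expression levels, and 5736 genes or probe sets that reached a level of 5 in at least 3 arrays were tested with limma. A change is the late mean minus the early mean, given with its standard error (n = 3 arrays per window), and it is called at a Benjamini-Hochberg adjusted p under 0.05. Array medians lay between 4.04 and 4.22, and 5369 to 5677 probe sets per array reached 5. Notch markers followed the labels: the Enhancer of split gene E(spl)m2-BFM had means of 10.4 early and 11.3 late in Notch embryos against 8.16 and 8.38 in control embryos, while the neuroblast genes wor (3.98 and 4.32 against 8.19 and 7.75) and nerfin-1 (3.03 and 3.91 against 8.31 and 9.38) were near the floor of the arrays. Not all proneural and neuroblast genes were low in Notch embryos. The early mean of dpn was above its control mean, and sna and l(1)sc lay well above the floor. Of 12 probe sets for yolk and eggshell genes of adult females, none reached 5 in any group. The signal of the 3′ GAPDH control probe set over the 5′ one rose in Notch embryos from 0.693 ± 0.086 (SD, n = 3) early to 1.61 ± 0.15 late, against 0.763 ± 0.18 and 3.17 ± 0.68 in control embryos. For actin it was 0.591 early and 0.618 late in Notch embryos, and for eIF-4a 2.24 and 1.86. The part of this measure in the results was not tested.

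The leading component held 45.2% of the variance, and its mean score moved from -22.2 to 12.4 between windows in Notch embryos and from -14.5 to 27.9 in control embryos. The second held 21.0% and separated Notch embryos (-7.13 early, -19.8 late) from control embryos (14.5 early, 10.9 late), whereas Ras embryos (15.1 and 11.1) lay near the control. Late Notch arrays therefore lay between the early and the late control arrays on the leading component. Notch plus Ras embryos had similar scores, -24.7 early and 10.4 late on the leading component and -5.58 and -19.1 on the second.

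**Figure D1:**
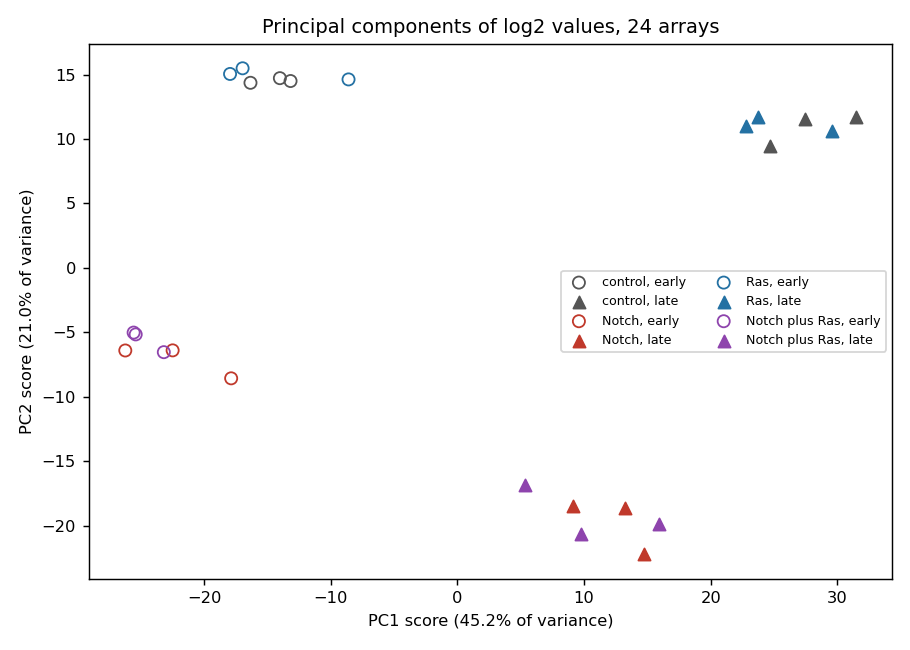
Scores of the 24 arrays on the leading 2 principal components of the log2 values, by cross (colour) and window (open circles early, filled triangles late). Late arrays lie to the right in every cross, and the Notch arrays lie at negative scores of the second component in both windows.

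Under activated Notch, 1058 genes rose and 573 fell between windows, which is 18.4% and 9.99% of those tested and 28.4% in all. Most changes were moderate, with medians of 0.64 among the called rises and -0.57 among the called falls. A change of at least 1 log2 unit was reached by 241 rises and 76 falls, and one of at least 2 by 42 rises and 7 falls. The 3 late values all lay above the 3 early values in 1012 of the rises and all below them in 512 of the falls, where 26.7% and 13% of all tested genes showed such a separation. The balance of directions depended on scaling: with each array centred on its median 744 genes rose and 729 fell, and after quantile normalisation 840 rose and 856 fell.

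The 12 largest rises spanned 2.70 to 3.87 log2 units. These genes and the 12 largest falls were chosen among called genes whose early and late values do not overlap, so that separation is part of the choice. CG9628 had early values of 5.27, 6.84 and 4.90 and late values of 9.03, 9.65 and 9.96, a rise of 3.87 ± 0.54 (adjusted p = 1.7e-05). The serpin gene Spn43Aa, of a family of protease inhibitors, had 3.28, 5.04 and 4.02 early and 7.07, 7.42 and 7.88 late (3.35 ± 0.41, adjusted p = 3.6e-06). In both, early array 2 was the highest early value. RyR, the ryanodine receptor that releases calcium from intracellular stores, stood at 3.32, 4.41 and 3.00 early and at 6.80, 6.60 and 6.72 late (3.13 ± 0.25, adjusted p = 3.9e-08). Its late arrays lay close together and far above the early ones. Argk1, which encodes arginine kinase, the phosphagen kinase of insects, had 5.12, 7.26 and 5.56 early and 8.98, 9.08 and 9.25 late (3.12 ± 0.38, adjusted p = 3.1e-06). CG9184 had 5.22, 7.48 and 3.77 early and 9.44, 9.82 and 7.71 late. Its windows barely separated, and its call (3.50 ± 0.99, adjusted p = 0.011) was lost without early array 3 or late array 2 (adjusted p up to 0.073).

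The cuticle protein gene Cpr47Eg had 3.80, 3.99 and 4.52 early and 7.60, 6.91 and 6.39 late (2.86 ± 0.83, adjusted p = 0.013). The glycosyltransferase gene Ugt36D1 had 4.76, 5.74 and 5.05 early and 7.88, 7.86 and 8.34 late (2.84 ± 0.28, adjusted p = 3.1e-07). Late array 1 was the highest for Cpr47Eg and late array 3 for Ugt36D1. CG7860 rose 7.42-fold, from 5.11, 6.03 and 5.37 to 7.91, 8.67 and 8.61. The rises of CG9674 (2.91 ± 0.41), the Ly6 family gene bero (2.74 ± 0.40), CG31121 (2.74 ± 0.26) and CG43332 (2.70 ± 0.29) completed the 12, and the other measured probe set of CG31121 rose too (2.15, adjusted p = 7.9e-06). Early array 2 was the highest of the early arrays for 11 of these 12 genes. Over all 1058 rises, early array 2 was the highest for 42.9% and late array 3 for 68.9%.

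The 12 largest falls were headed by transcription factors and a cell cycle regulator. Kr, the Krüppel zinc finger protein of segmentation and later tissues, had early values of 7.13, 6.74 and 6.82 and late values of 4.80, 4.05 and 4.99, a 4.86-fold fall (-2.28 ± 0.20, adjusted p = 8.1e-08). dpn, a Hairy-related repressor of neuroblasts, had 8.67, 7.95 and 8.00 early and 6.56, 5.49 and 6.02 late (-2.18 ± 0.27, adjusted p = 3.8e-06). Windows were apart by more than 1 log2 unit for both genes. CycE, the cyclin that drives entry into S phase, had 10.51, 10.45 and 10.45 early and 8.65, 8.20 and 8.12 late, a 4.43-fold fall from a high and nearly constant early level (-2.15 ± 0.16, adjusted p = 1.5e-08). The homeobox gene unpg had 5.66, 4.68 and 4.46 early and reached the floor late, at 3.08, 3.03 and 3.03. RanGAP, the GTPase activator of the Ran nuclear transport cycle, had 9.35, 9.47 and 9.56 early and 7.90, 7.85 and 8.04 late (-1.53 ± 0.12, adjusted p = 1.5e-08).

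Other falls included genes for membrane and secreted proteins. The scavenger receptor gene Sr-CII had 8.18, 7.24 and 7.48 early and 5.94, 5.38 and 5.24 late (-2.11 ± 0.24, adjusted p = 1.4e-06). jeb, which encodes the ligand of the receptor tyrosine kinase Alk in the visceral mesoderm, had 5.91, 5.66 and 5.26 early and 3.83, 3.65 and 3.59 late (-1.92 ± 0.17, adjusted p = 8.1e-08). bib, a neurogenic gene for a membrane protein, had 9.54, 9.57 and 9.54 early and 8.00, 8.01 and 7.78 late (-1.62 ± 0.24, adjusted p = 2.9e-05). Late values were close together in jeb and bib and more spread in Sr-CII. The remaining falls were those of the zinc finger gene seq (-2.12 ± 0.53), CG11498 (-1.78 ± 0.28), the vitamin transporter gene Smvt (-1.62 ± 0.18) and CG2145 (-1.60 ± 0.15). Early array 1 was the highest early array for 10 of the 12, and for 46.1% of all 573 falls.

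**Figure D2:**
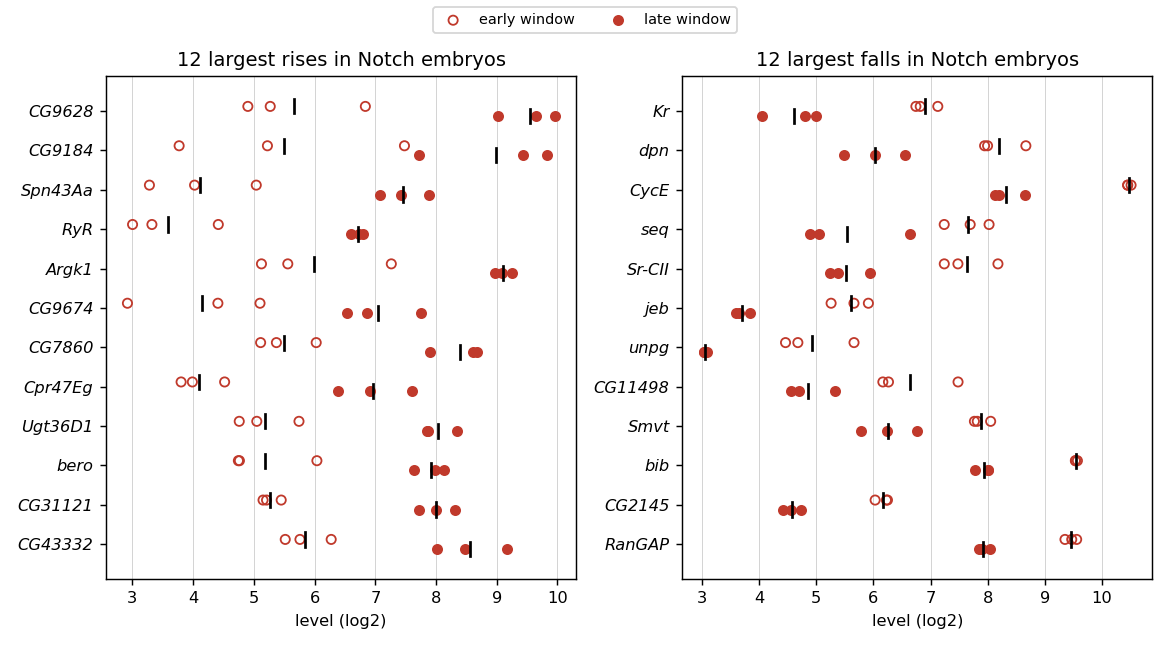
Log2 level of the 12 genes with the largest rise (left) and the 12 with the largest fall (right) in each Notch array, with early arrays as open and late arrays as filled circles; vertical bars are means of 3 arrays. Genes were chosen among those with separate windows, and CG9184 has the narrowest gap among the rises.

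Gene lists for the tissues and processes of these stages are described by the number of measured members called in each direction, beside 18.4% rising and 9.99% falling over all genes and a median change of 0.07. The lists held 295 different measured genes, of which 79 rose and 39 fell. The difference between the Notch and the control change was called positive for 11 and negative for 8 of the 295. Over all genes tested it was called for 1.6%, so no called difference in a short list is near that share and says little about the list. Lists and members were chosen with earlier results of these data known, so shares above those of all genes may be partly built in. Members named beyond the 3 largest called changes of a list were chosen after their values were seen.

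Of 14 measured septate junction genes, whose products seal epithelia, 10 rose and none fell, with a median change of 0.68. The largest was cora, the FERM domain scaffold Coracle, with 6.85, 7.47 and 6.88 early and 8.93, 8.87 and 8.78 late (1.80 ± 0.16, adjusted p = 9.9e-08). The transmembrane protein gene Nrx-IV had 7.62, 8.21 and 7.81 early and 8.99, 9.25 and 9.36 late (1.32 ± 0.24, adjusted p = 0.00035). The windows were separate for both. The adhesion gene Nrg rose by 0.88 ± 0.18, and Cont, kune, Gli, crok, bou, pck and Tsf2 rose by 0.54 to 0.75. Lac (-0.13), dlg1 (-0.04), nrv2 (-0.21) and sinu (0.20) were not called. In control embryos 8 of the 14 rose. The difference between the crosses was called for none of the 14, against 1.6% of all genes tested.

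Of 10 measured genes of the apical matrix and cuticle, 7 rose and none fell (median 1.14), as did 7 in control embryos. verm, a chitin deacetylase gene that limits tracheal tube length, had 4.46, 5.74 and 4.39 early and 7.50, 7.28 and 7.00 late (2.40 ± 0.45, adjusted p = 0.00042). The chitin-binding protein gene obst-A had 4.42, 6.43 and 5.68 early and 8.16, 7.24 and 7.16 late, without overlap (2.01 ± 0.61, adjusted p = 0.018). Its call was lost without early array 1 or late array 1 (adjusted p up to 0.10), and its other probe set rose by 1.73 (adjusted p = 0.0018). The cuticle protein gene Cpr5C had 9.29, 8.91 and 9.24 early and 10.91, 11.04 and 11.09 late (1.87 ± 0.18, adjusted p = 1.6e-07). The zona pellucida domain gene neo (1.63), the second deacetylase gene serp (1.10) and Cda4 (0.94) rose too. The rise of verm was 4.07 in control embryos; the difference of -1.67 was not called in the main fit (adjusted p = 0.29) and was called with the parallel collections as a block (adjusted p = 0.016). Control embryos also rose more in obst-A (3.54), a difference that was not called (adjusted p = 0.60). Of 5 measured cuticle genes of older embryos, none was called in Notch and 3 rose in control embryos.

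Among 13 tracheal genes 5 rose and 1 fell (median 0.40). pio, which encodes a zona pellucida protein of the apical surface, had 6.13, 6.06 and 6.03 early and 7.20, 7.25 and 7.33 late, a rise of 1.19 ± 0.11 (adjusted p = 9e-08). In control embryos pio rose by 0.51, and the difference was called (0.68, adjusted p = 0.022), but not without control early array 1 or 3, Notch early array 2 or 3 or Notch late array 3, nor after median centring or quantile normalisation (adjusted p up to 0.080). btl, the FGF receptor of tracheal cells, had 9.02, 8.18 and 8.25 early and 7.51, 7.25 and 7.22 late, and fell by 1.16 ± 0.18 (adjusted p = 7.4e-05).

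Blood cell and fat body genes changed in part. Of 15 hemocyte genes 6 rose and none fell in Notch embryos (median 0.38), and 9 rose in control embryos. The prophenoloxidase gene PPO2, of crystal cells, had 5.76, 5.45 and 5.77 early and 6.99, 7.04 and 7.27 late (1.44 ± 0.15, adjusted p = 4.7e-07). Pvr, the PDGF and VEGF receptor of hemocytes and other cells, had 6.83, 7.33 and 6.83 early and 8.25, 8.59 and 8.36 late (1.41 ± 0.20, adjusted p = 2.2e-05). Both had separate windows. The laminin subunit genes LanB1 (0.97), LanB2 (0.70) and LanA (0.69) rose, whereas the collagen IV genes vkg (0.29) and Col4a1 (0.28) were not called, against 1.92 and 1.56 in control embryos. No hemocyte gene was called for the difference, against 1.6% of all genes tested. Of 6 fat body and transport genes 2 rose and 2 fell (median -0.29), the falls being those of Sr-CII (-2.11) and Smvt (-1.62). Among the rises, apolpp, the precursor of the main lipid carrier of hemolymph, rose by 1.37 ± 0.16 (adjusted p = 2.1e-06), close to 1.58 in control embryos.

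In mesoderm and myoblasts 2 of 12 measured genes rose and 2 fell. blow, a cytoplasmic protein needed for myoblast fusion, had 5.87, 6.64 and 6.16 early and 8.47, 8.62 and 8.85 late (2.42 ± 0.23, adjusted p = 1.8e-07). The windows were far apart, and control embryos changed by 2.02. lmd, a zinc finger factor of fusion-competent myoblasts, rose by 0.88. The visceral mesoderm gene bap had 7.28, 7.37 and 7.07 early and 6.27, 5.99 and 5.72 late and fell by 1.25 ± 0.18 (adjusted p = 2e-05). Of 12 structural muscle genes, 3 rose and none fell. The titin-like gene sls (0.93 ± 0.14) and the actin gene Act87E (0.85 ± 0.13) were called, as was Act79B (0.62 ± 0.22, adjusted p = 0.037), which lost its call without early array 1 or 3 or late array 2 or 3, with either other scaling, with array weights, without the filter on dim probe sets and on the 6 arrays alone (adjusted p up to 0.23). In control embryos 10 of the 12 rose, with a median change of 1.12 against 0.44 under Notch. Mlc1 (1.11 against 2.92 in control), Mlc2 (1.42 against 3.52) and the troponin gene up (0.27 against 2.42) were not called in Notch embryos. The difference was not called for any of the 12, against 1.6% of all genes tested.

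Of 20 measured genes of the cell cycle and DNA replication, 11 fell and 1 rose, with a median of -0.43, and 14 fell and 2 rose in control embryos (median -0.46). Mcm5, a subunit of the replicative helicase, had 9.15, 8.73 and 8.64 early and 7.40, 7.62 and 7.68 late (-1.28 ± 0.16, adjusted p = 3.8e-06). dup, the fly Cdt1 that loads the helicase, had 10.11, 9.87 and 10.03 early and 8.97, 8.60 and 8.68 late (-1.25 ± 0.11, adjusted p = 9e-08). Neither had overlapping windows. Mcm2, Mcm3, Orc1, Cdc6, Cdc45, RnrL, CycB3 and fzy fell by 0.34 to 0.79, and Cdk4 rose by 0.56. CycE was called for the difference, with a fall larger by 0.97 ± 0.23 than the control fall of 1.17 (adjusted p = 0.030). That call was lost without control early array 1, control late array 2, any of the Notch early arrays, or Notch late array 2 or 3 (adjusted p up to 0.098).

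Direct outputs of Notch moved in different directions, though the falls were called only under some settings. Of 10 measured genes of the Enhancer of split complex, 4 rose and 1 fell (median 0.46), and 2 rose and 2 fell in control embryos. E(spl)m3-HLH had 9.94, 10.68 and 9.96 early and 11.56, 11.76 and 11.83 late (1.52 ± 0.17, adjusted p = 1.7e-06). E(spl)m7-HLH had 11.06, 11.21 and 10.63 early and 12.20, 12.17 and 12.46 late (1.31 ± 0.19, adjusted p = 3e-05), while the control change was 0.03. E(spl)m2-BFM had 10.43, 10.50 and 10.40 early and 11.26, 11.15 and 11.48 late (0.86 ± 0.17, adjusted p = 0.00052). All 3 were separate between windows and above their control means in both. E(spl)m5-HLH fell by 0.72 (adjusted p = 0.039), against 1.83 in control embryos, a difference that was not called (adjusted p = 0.18). No gene of the list was called as falling without early array 1 or 2 or late array 2 or 3. The same held with array weights and without the filter on dim probe sets. Of 3 Bearded complex genes, Brd was called, with 12.08, 11.89 and 12.22 early and 11.71, 11.72 and 11.50 late (-0.42 ± 0.14, adjusted p = 0.030). It lost that call without early array 1 or 3 or late array 3 (adjusted p up to 0.13). The control fall of Brd was 1.09, and the difference of 0.67 passed with the parallel collections as a block (adjusted p = 0.0064) and not without (adjusted p = 0.11). With that block 2 genes of the list fell.

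Genes of the early nervous system fell more often than they rose. Of 23 proneural and neuroblast genes, 6 fell and 2 rose, against 9 and 5 in control embryos. Without late array 1 the rises were 4, and without late array 3 or on the 6 Notch arrays alone 1. The proneural gene l(1)sc had 8.48, 7.83 and 8.17 early and 7.12, 6.70 and 6.60 late (-1.35 ± 0.19, adjusted p = 2.1e-05), next to a control fall of 1.77. ato, pros, nub and pdm2 also fell, by 0.87 to 1.19. sna, a zinc finger repressor of mesoderm and neuroblasts, rose 2.72-fold, from 8.87, 9.29 and 8.72 to 10.12, 10.29 and 10.80. wor (0.34), insc (0.10) and ase (-0.02) were not called and lay at 5 or below in mean level in both windows. Of 10 measured genes of neuronal differentiation, 1 rose and 2 fell. Nrt, the adhesion protein Neurotactin, was the single gene called in opposite directions in Notch and control embryos. Its early values were 10.26, 9.89 and 9.95 and its late values 9.49, 9.34 and 9.33 (-0.64 ± 0.10, adjusted p = 7.4e-05), whereas it rose by 0.35 in control embryos, a difference of -0.997 (adjusted p = 0.00045). The other Nrt probe set changed by -0.07 in Notch embryos, and its difference of -0.52 was not called (adjusted p = 0.13).

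Of 9 glial and midline genes 3 rose and none fell. wrapper, a midline glia membrane protein gene, had 7.31, 7.70 and 7.24 early and 8.69, 8.97 and 9.57 late (1.66 ± 0.19, adjusted p = 1.2e-06), from an early level above the late control mean of 5.77. The FGF gene ths had 5.75, 6.14 and 5.52 early and 7.28, 6.18 and 7.14 late, with 1 late value close to the highest early one (1.07 ± 0.22, adjusted p = 0.0010). The glial homeobox gene repo rose by 0.67 ± 0.19 but stayed under 5 in all 6 Notch arrays.

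Signalling components changed in both directions. Of 14 Notch pathway components, 2 rose and 4 fell. fng, the glycosyltransferase that modifies Notch, had 6.63, 7.11 and 6.49 early and 8.09, 8.19 and 8.60 late (1.55 ± 0.25, adjusted p = 0.00010), near the control change of 1.46. The Notch co-activator gene mam had 12.72, 13.17 and 12.63 early and 11.90, 11.33 and 10.99 late (-1.43 ± 0.24, adjusted p = 0.00015), near the control change of -1.40. A second mam probe set changed by -0.24 (adjusted p = 0.44), so its probe sets disagreed. The protease gene kuz (-0.80) and the ubiquitin ligase gene neur (-0.61) fell, and the regulator dx rose by 0.74. Of 24 RTK and Ras components and targets, 7 rose and 5 fell (5 and 6 after centring or quantile normalisation; 3 fell without early array 2 or late array 2, and 2 on the 6 Notch arrays alone), among them the ligand gene Krn (0.90), the phosphatase gene Mkp3 (0.79) and the FGF gene pyr (0.66), all upward. pyr changed by -0.07 in control embryos, and its difference of 0.73 was called (adjusted p = 0.0060).

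In the dpp pathway 2 of 12 genes rose and none fell. The inhibitory Smad gene Dad had 4.45, 4.76 and 4.77 early and 5.35, 5.66 and 5.63 late (0.89 ± 0.21, adjusted p = 0.0027). The receptor gene tkv rose by 0.60 ± 0.14, but its second probe set did not (-0.06). Of 14 segmentation, Wnt and Hedgehog genes, 3 rose and 2 fell, or 2 rose and 3 fell with centred arrays, and 1 fell with the parallel collections as a block. hry, the pair-rule repressor Hairy, had 6.59, 7.00 and 6.62 early and 7.55, 7.63 and 7.75 late (0.90 ± 0.15, adjusted p = 0.00014). The forkhead gene slp2 fell by 0.71 ± 0.18 and the Hedgehog effector ci by 0.38. Of 6 Hox cluster genes only Antp was called, at 7.19, 6.83 and 6.86 early and 6.44, 6.34 and 6.20 late (-0.64 ± 0.16, adjusted p = 0.0061). Its control change was -0.01, and the difference of -0.62 was not called (adjusted p = 0.28).

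Gut, gland and amnioserosa genes gave mixed counts. Of 14 gut genes 4 rose and 2 fell, or 2 and 2 with centred arrays or without early array 3. bowl, a zinc finger gene of the gut and segments, rose by 1.26 ± 0.26 (adjusted p = 0.0011) and kni, a gap gene used later in gut and trachea, by 0.72 ± 0.14 (adjusted p = 0.00045). hkb, a zinc finger gene of the terminal gut and salivary placode, had 5.44, 5.53 and 5.24 early and 3.86, 3.97 and 4.05 late (-1.45 ± 0.13, adjusted p = 1.1e-07). Among 8 salivary gland genes 3 rose and 1 fell. pip, a sulphotransferase gene, rose by 1.20 ± 0.15, as in control embryos (1.02). The prolyl hydroxylase gene PH4alphaSG2 rose by 1.12 ± 0.22 against 2.26 in control embryos, a difference of -1.14 that was called with the parallel collections as a block (adjusted p = 0.010) and not without (adjusted p = 0.072). Of 12 amnioserosa genes only Kr was called for the Notch change. The difference from control was called positive for 1 and negative for 2 of the 12, against 0.54% and 1.06% of all genes tested. Of 5 cell death genes only skl rose, from 5.12, 5.21 and 5.09 to 6.18, 5.68 and 6.77 (1.07 ± 0.24, adjusted p = 0.0018). Its control change was 0.16, and the difference of 0.91 passed with the parallel block (adjusted p = 0.031) and not without (adjusted p = 0.27). A negative difference was called for 1 other of the 5 cell death genes.

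Hormone and metabolic genes were partly called. Of 10 ecdysone pathway genes 3 rose and 1 fell. All 3 rises were nuclear receptor genes of the ecdysone cascade: Hr4 rose from 3.64, 3.65 and 3.48 to 6.38, 5.66 and 5.78 (2.35 ± 0.25, adjusted p = 5.7e-07), Hr39 by 1.29 ± 0.27 and Hr3 by 1.13 ± 0.27. Control changes were 2.67, 1.04 and 1.50. dib, a P450 gene of ecdysone synthesis, fell by 0.68 (adjusted p = 0.043), but no gene of the list was called as falling without early array 3 or late array 3, with array weights, without the filter on dim probe sets or on the 6 Notch arrays alone. Of 12 glycolysis genes 4 rose and none fell, against 10 rises in control embryos. No difference was called among them, against 1.6% of all genes tested. The trehalose transporter gene Tret1-1 had 6.20, 6.79 and 6.61 early and 8.39, 7.86 and 8.12 late (1.59 ± 0.18, adjusted p = 1.5e-06). Eno, the enolase gene, had 5.50, 5.87 and 5.59 early and 6.89, 6.95 and 6.85 late (1.24 ± 0.18, adjusted p = 2.3e-05), and Pgm1 rose by 1.19 ± 0.16. Gapdh1 (0.19 against 0.92 in control embryos) and Pgk (-0.01 against 0.43) were not called.

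Of 9 ribosomal protein genes 3 rose, RpLP1 by 0.43 ± 0.10, RpS15 by 0.37 ± 0.10 and RpL3 by 0.31 ± 0.11. Quantile normalisation ended the calls of RpS15 and RpL3, and RpL3 lost its call without any single Notch array (adjusted p up to 0.19). Of 15 ribosome biogenesis genes 5 rose and none fell (2 rose with centred arrays, 3 without early array 2 or 3 and 1 without late array 3), with the polymerase I subunit genes Polr1B (0.78 ± 0.23) and Polr1A (0.73 ± 0.10) ahead of Ns2 (0.47 ± 0.14). Polr1B was not called without early array 3 or late array 3 (adjusted p up to 0.094), nor Ns2 without late array 3 or with centred arrays (adjusted p up to 0.11), and neither was called on the 6 Notch arrays alone. Of 7 heat shock and stress genes 2 rose, the endoplasmic reticulum chaperone Hsc70-3 by 1.14 ± 0.23 (adjusted p = 0.00066) and Hsp27 by 0.73 ± 0.18. Of 9 maternal and germline genes only gcl was called (0.91 ± 0.15, adjusted p = 0.00011), and 4 others fell without early array 1.

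**Figure D3:**
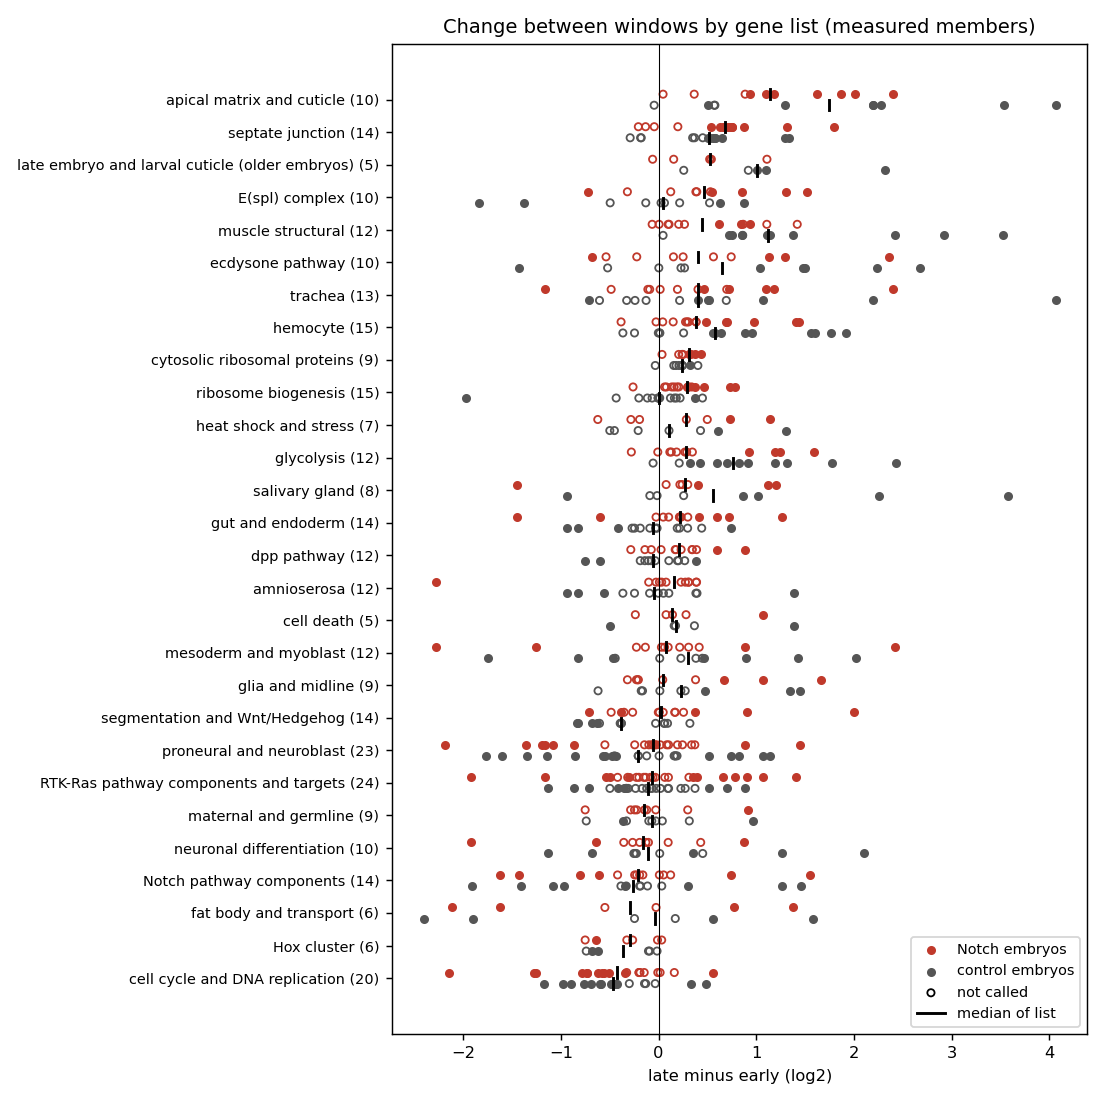
Change between windows (late minus early, log2) of each measured member of 28 gene lists in Notch (red) and control (grey) embryos, with called members filled, others open, and list medians as bars; the number of measured members follows each name. The apical matrix and septate junction lists have medians of 1.14 and 0.68 in Notch embryos, and the cell cycle list has -0.43.

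The changes under activated Notch were set against those of control embryos, where 1049 genes rose and 749 fell (31.3% called in all). Of the 1049 control rises, 712 (67.9%) also rose in Notch embryos, 336 were not called and 1 fell. Of the 749 control falls, 403 (53.8%) also fell and 346 were not called. Of the genes not called in Notch embryos, 314 of 336 and 303 of 346 had a change of the same sign, and 80 of the 336 stayed below 5 in all 6 Notch arrays. A missing call is not a difference, so the difference between the changes was tested itself: it was called for 49 of the control rises and 14 of the control falls. Without control early array 3 the 49 became 30, and without control early array 1, Notch early array 2 or 3 or Notch late array 3 the 14 became 8. The number of control falls not called in Notch embryos became 218 without control early array 1 and 224 without control early array 3. Which direction was kept more often depended on scaling. With arrays centred on their medians, 546 of 925 control rises and 456 of 726 control falls were kept, a larger share of the falls. After quantile normalisation 611 of 966 rises and 595 of 1108 falls were kept, a larger share of the rises.

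The control values chose these genes, which favours large control changes, so medians were also taken over genes called in Ras embryos, a choice added after the data were seen. Over the 1019 genes that rose in Ras embryos, the median change was 0.65 in control, 0.56 in Notch and 0.60 in Notch plus Ras embryos. Over the 612 that fell, it was -0.53, -0.39 and -0.38. Notch changes were the smaller in 57.9% of these rises and 71.6% of these falls. Ras embryos also lack the Notch transgene, so this choice can still favour changes of embryos without it. No such choice was made on Notch plus Ras embryos. The median difference of 0.05 between the Notch and the control change over all genes also enters these shares. Among the 1058 rises of Notch embryos, 712 (67.3%) were also called in control embryos, and among the 573 falls, 403 (70.3%). The sign was shared in 95.9% and 97.6%.

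**Figure D4:**
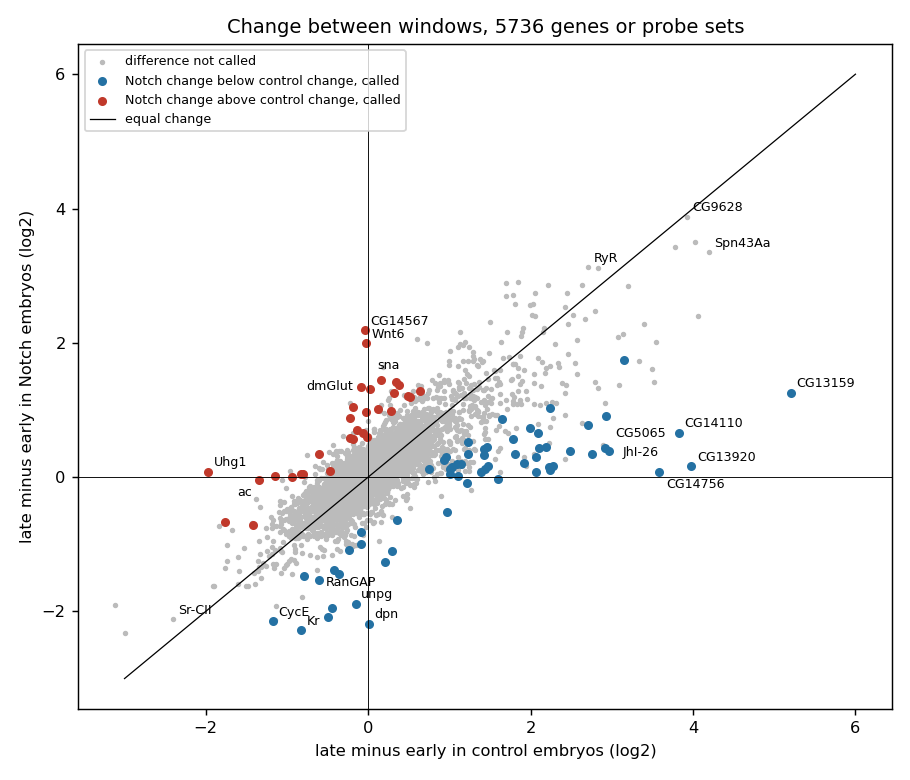
Change between windows in Notch embryos against that in control embryos (both late minus early, log2) for 5736 genes or probe sets, with the line of equal change. Blue points (61) had a called difference below and red points (31) above the control change.

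The largest changes shared by both crosses were, for rises, those of CG9628 (3.87 in Notch and 3.92 in control embryos), CG9184 (3.50 and 4.02), Spn43Aa (3.35 and 4.20), Ugt36D1 (2.84 and 3.19), Argk1 (3.12 and 2.82) and RyR (3.13 and 2.71). For falls they were those of Sr-CII (-2.11 and -2.40), Smvt (-1.62 and -1.90), bib (-1.62 and -1.91), mam (-1.43 and -1.40), CG2145 (-1.60 and -1.39) and rut (-1.39 and -1.36). rut encodes an adenylyl cyclase and had 14.41, 14.77 and 14.38 early and 13.70, 12.98 and 12.70 late in Notch embryos. The difference between crosses was called for none of these 12 genes (adjusted p from 0.70 to 0.997). They were called in both crosses and ranked by the smaller of the 2 changes, which favours similar changes. The missing calls are thus partly fixed by the choice, and only 1.6% of all genes tested were called.

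The difference between the Notch and the control change was called for 92 genes, 1.6% of those tested, with 31 positive (0.54%) and 61 negative (1.06%). It was called for 59 genes without control early array 3. With arrays centred on their medians, 14 were positive and 61 negative. Collections had been made in parallel sets. The labels do not say which arrays form a set, so arrays of 1 window with the same replicate number were assumed to, and calls gained with this block rest on that assumption. With it all 92 calls were kept among 222 (106 positive and 116 negative).

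Most negative differences belonged to genes that rose in control embryos, 46 of the 61, where 18.3% of all genes tested rose. The control change enters the difference, so this overlap is partly fixed by the choice. In Notch embryos 10 of the 61 rose, 16 fell and 35 were not called. Below 5 in all 6 Notch arrays were 26 of the 61, against 2 of the 31 positive genes. These genes met the level filter only through other crosses. CG13159, whose Notch change of 1.26 was not called (adjusted p = 0.082) though its windows were separate, reached 10.66 late in control embryos, from 5.46, whereas its Notch values were 4.49, 4.80 and 4.74 early and 6.43, 6.03 and 5.33 late (difference -3.95 ± 0.75, adjusted p = 0.0060). CG13920 rose from 3.85 to 7.83 in control embryos and stayed at 3.06, 2.92 and 3.20 early and 3.19, 3.25 and 3.22 late in Notch embryos (-3.82 ± 0.35, adjusted p = 8.7e-07). Late control arrays lay far above every Notch array for both genes. CG14756, a member of the salivary gland list, rose from 4.60 to 8.17 in control embryos and had Notch values between 3.59 and 4.15 in both windows (difference -3.50, adjusted p = 0.0064). The juvenile hormone inducible gene JhI-26 rose by 2.96 in control embryos and by 0.39 in Notch embryos (difference -2.57, adjusted p = 6.4e-05). CG5065 (2.91 against 0.43) and CG4306 (2.76 against 0.35) showed the same order, with differences of -2.48 and -2.41. The Notch change of CG4306 just missed the threshold (adjusted p = 0.051) and was called under 5 of 16 other settings. For CG14110 (3.82 against 0.66) the difference of -3.16 was called (adjusted p = 0.035), but not without control early array 1, 2 or 3, control late array 1 or 2, Notch early array 1, 2 or 3, or Notch late array 2 or 3 (adjusted p up to 0.10). Near the floor of the array a Notch change can be compressed, so sizes of these differences are uncertain.

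A second kind of negative difference was a fall found under activated Notch: 16 of the 61 genes fell in Notch embryos, and 11 of the 61 were not called in control embryos. Over all genes tested 9.99% fell in Notch embryos, and the Notch change also enters the difference. dpn stood at 6.66 in both windows of the control and fell from a Notch mean of 8.21 to 6.02 (difference -2.19 ± 0.38, adjusted p = 0.0032). The early Notch level was thus above, and the late one below, the control. unpg had control means of 3.10 and 2.95, at the floor in both windows, and an early Notch mean of 4.93 (difference -1.73, adjusted p = 0.0026). Kr fell by 0.83 in control embryos, from 7.83 to 7.00, and by 2.28 in Notch embryos, from a lower early mean of 6.90 (difference -1.46, adjusted p = 0.0076). RanGAP fell by 0.61 in control embryos and by 1.53 in Notch embryos (difference -0.92, adjusted p = 0.0040).

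Positive differences were mostly rises found under activated Notch: 21 of the 31 genes rose in Notch embryos, and 18 were not called in control embryos. That overlap is partly fixed by the choice too, and 18.4% of all genes tested rose in Notch embryos. CG14567 had 5.93, 6.26 and 5.74 early and 8.08, 8.15 and 8.27 late, a 4.57-fold rise, with control means of 4.43 and 4.40 (difference 2.23 ± 0.22, adjusted p = 2e-06). Wnt6, which encodes a secreted Wnt ligand, had 3.49, 3.47 and 3.49 early and 5.00, 5.53 and 5.92 late, with control means of 3.45 and 3.42 (difference 2.03, adjusted p = 8.7e-06). Late Notch plus Ras embryos had a mean of 5.29, and the early groups and late Ras embryos lay near the floor. The transporter gene dmGlut had 3.68, 3.65 and 3.82 early and 5.12, 4.76 and 5.31 late (difference 1.44, adjusted p = 6.4e-05). Lst, the peptide hormone Limostatin, had 4.72, 4.62 and 4.50 early and 5.61, 5.58 and 5.77 late (difference 1.23, adjusted p = 0.0060). sna (difference 1.28, adjusted p = 0.0056) and E(spl)m7-HLH (1.28, adjusted p = 0.014) changed by 0.16 and 0.03 in control embryos. The call for E(spl)m7-HLH was lost without control early array 3 (adjusted p = 0.054).

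For 10 of the 31 positive genes the control fell, where 13.1% of all genes tested fell in control embryos. The proneural gene ac had control means of 5.10 early and 3.76 late and Notch values of 3.92, 3.79 and 4.17 early and 3.91, 3.99 and 3.87 late (difference 1.30, adjusted p = 0.00045). Its control level had thus come down to the Notch level by the late window. Uhg1, a small nucleolar RNA host gene, had control values of 7.03, 5.65 and 6.39 early and 4.12, 4.41 and 4.64 late, and Notch values from 3.83 to 4.12 throughout (difference 2.05, adjusted p = 0.00045). Ras embryos had an early Uhg1 mean of 3.97, so the high early level was found in the control alone, and the Notch change did not differ from that of Ras embryos at the threshold (0.27, adjusted p = 0.79). CG7860 (difference 1.19, adjusted p = 0.12) and CG43332 (1.00, adjusted p = 0.35) passed with the parallel collections as a block (adjusted p = 0.0031 and 0.018), and jeb did so with a difference of -0.79 (adjusted p = 0.12 without and 0.029 with the block).

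**Figure D5:**
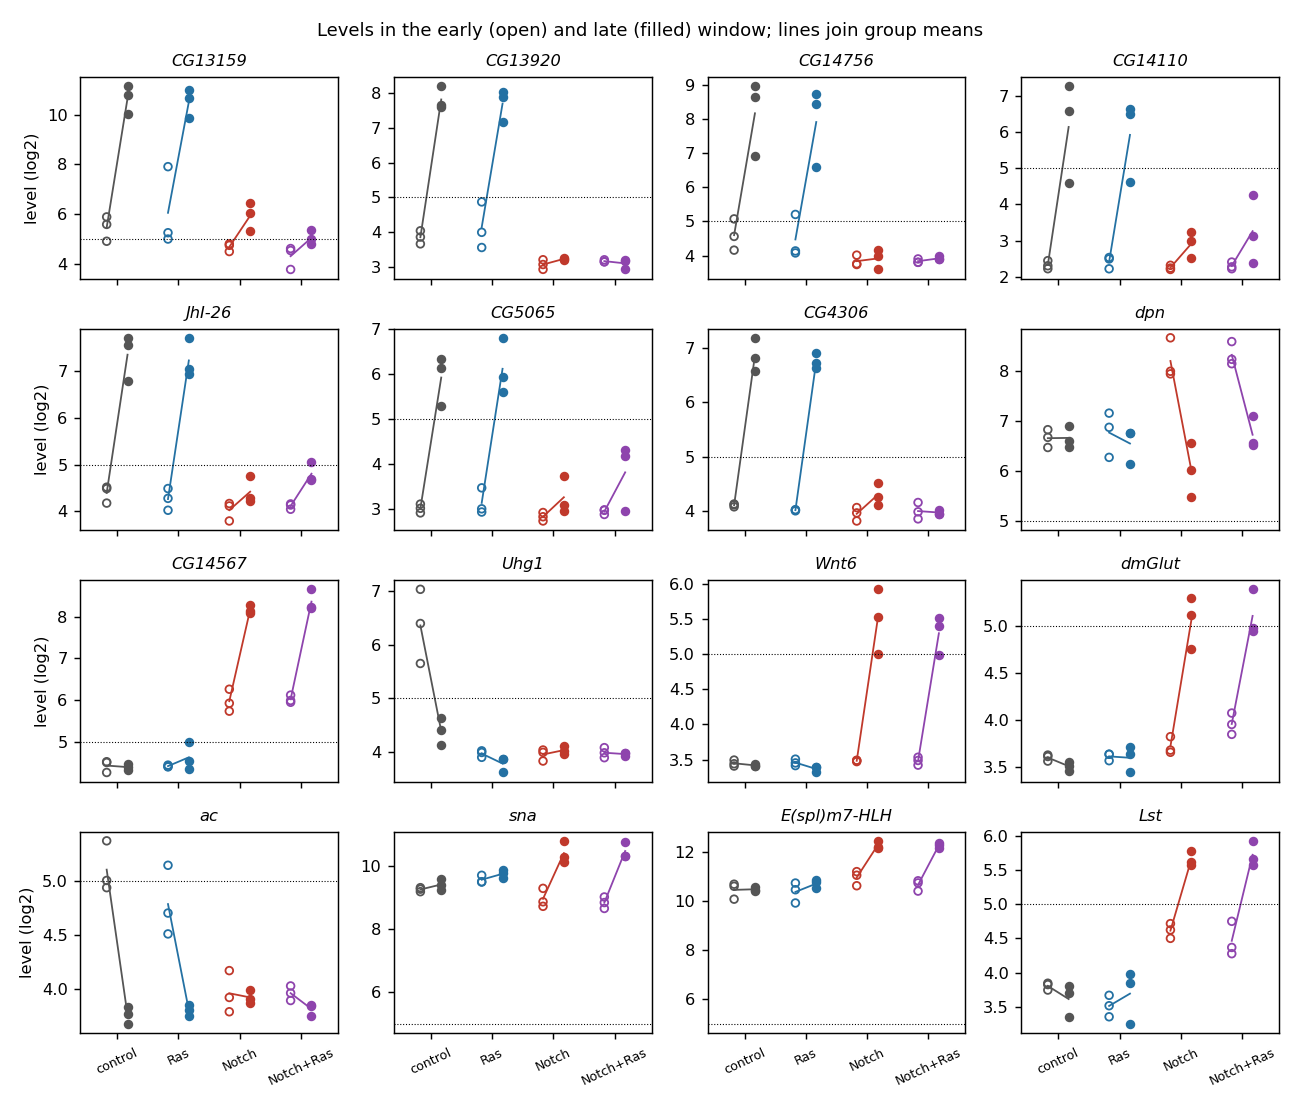
Log2 levels of the 8 genes with the largest negative (upper 2 rows) and the 8 with the largest positive differences (lower 2 rows) in control, Ras, Notch and Notch plus Ras embryos; early arrays are open, late arrays filled, lines join group means and the dotted line marks a level of 5. CG13920 rises in control and Ras embryos only, and CG14567 and Wnt6 rise in Notch and Notch plus Ras embryos only. CG4306 rises in control and Ras embryos, and its Notch change of 0.35 just misses the threshold (adjusted p = 0.051).

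Ras embryos gave a second reference without the Notch transgene, and it shares the Notch arrays with the comparison above, so values are given side by side. The Notch change differed from the Ras change for 117 genes (2.04%), 51 positive (0.889%) and 66 negative (1.15%), or 23 and 68 with arrays centred on their medians. The total of 117 became 246 without Notch early array 1, 65 without Ras early array 3 and 312 with the parallel collections as a block. In Notch plus Ras embryos 1167 genes rose (20.3%) and 743 fell (13%), 33.3% in all. For CG14567 the change was 2.19 in Notch, 0.21 in Ras and 2.34 in Notch plus Ras embryos. For CG13920 it was 0.16, 3.57 and -0.07. For dpn it was -2.18, -0.22 and -1.60, and for Kr it was -2.28, -0.61 and -1.07. The Notch plus Ras change lay nearer to the Notch change for CG14567, CG13920 and dpn and nearer to the Ras change for Kr. Among named genes with no called difference from the control, hry rose in Notch (0.90) and fell in Ras embryos (-0.57), a difference of 1.47 (adjusted p = 0.00045). CG7860 (1.41, adjusted p = 0.043), btl (-1.13, adjusted p = 0.025), Antp (-0.98, adjusted p = 0.029), Pgm1 (0.93, adjusted p = 0.029) and Polr1A (0.55, adjusted p = 0.048) also differed from their changes in Ras embryos.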

How the data were processed

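Total RNA of whole embryos was hybridised to 24 arrays, 3 in each of 8 groups, grouped by sample title. The deposited values are log2 levels per probe set; per the submitters' processing notes the authors used GCRMA and limma, with versions not given here. By default GCRMA equalises arrays by quantiles and compresses dim probe sets, and its settings here are not stated. Symbols came from the platform annotation, updated through RefSeq where matched. Of 14010 probe sets, 44 controls and those below 5 in all but 2 or fewer arrays were left out, and each gene kept its probe set with the highest mean: 5020 rows with 1 symbol, 578 without and 138 with several (tested, never named). The model of 8 group means used R 4.3.3 and limma 3.58.1 (lmFit, then eBayes; 16 residual and 4.09 prior degrees of freedom), with Benjamini-Hochberg adjustment in each of 6 comparisons. Only 3 arrays per group limit the precision.

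Named were the 12 largest rises and falls among called genes with separate windows, the 8 largest called differences in each direction, the 6 largest shared changes in each direction, genes called in opposite directions, and for each list its 3 largest called changes, or failing any the 2 members with the highest level. Members, lists and rules were chosen with earlier results of these data known. Numbers were taken to pair arrays where the deviations of every same-numbered pair correlated above 0.1. Notch arrays of both windows missed this (r = 0.20, 0.033 and 0.087), and Notch and control arrays of 1 window met it (r from 0.17 to 0.58). Arrays of 1 window and number were therefore assumed to be the design text's parallel collections and used as a block for differences between crosses. Early and late arrays also met the minimum in Ras (r from 0.12 to 0.29) and Notch plus Ras embryos (r from 0.11 to 0.25). They missed it in control embryos (r = 0.054, 0.15 and 0.040). The main fit paired no arrays. The fit was tested on simulated data: for the Notch change over 5736 genes it recovered 46.3%, 95.5% and 98.5% of changes of 0.5, 1 and 2 log2 units, and for Notch minus control 20.9%, 65.7% and 95.5%. There 200 genes changed in late Notch embryos, no other gene changed between windows, and noise was independent between arrays. In the data 28.4% of genes were called for the Notch change, so these rates need not hold there. Alternatives covered scaling, filters, probe set choice, array weights, blocks and leaving out each array. Transgene levels were not analysed here.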

Additional observations from a re-analysis of the deposited data

Results flagged for a closer look

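The change between windows differed between Notch and control embryos for 92 genes, and between Notch and Ras embryos for 117, by limma's test of the difference. Each gene named by the rules above with such a difference is listed with its value, as the Notch change minus the other change in log2 units. Genes chosen after their values were seen, such as pyr, are left out. Below the control change were CG13159 (-3.95), CG13920 (-3.82), CG14756 (-3.50), CG14110 (-3.16), JhI-26 (-2.57), CG5065 (-2.48), CG4306 (-2.41), dpn (-2.19), unpg (-1.73), Kr (-1.46), Nrt (-0.997), CycE (-0.97) and RanGAP (-0.92). Above it were CG14567 (2.23), Uhg1 (2.05), Wnt6 (2.03), dmGlut (1.44), ac (1.30), sna (1.28), E(spl)m7-HLH (1.28), Lst (1.23) and pio (0.68). Against Ras embryos alone, hry (1.47), CG7860 (1.41), Pgm1 (0.93) and Polr1A (0.55) lay above, and btl (-1.13) and Antp (-0.98) below.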

How the results depend on the processing

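No called change of a named gene turned its sign under any alternative run. Of 1539 values of the Notch change of named genes under other settings, 1492 kept their side of the threshold, as did 2070 of 2121 values of the difference from control. Most named genes were chosen by calls and sizes of change in these same data, so these counts partly follow from the choice. Over all genes, 1151 of 1631 Notch calls were kept without Notch late array 3. Of 92 calls of the difference from control, 57 were kept without control early array 3. The Notch change was called for 1077 genes when fitted on its 6 arrays alone (1037 of them among the main calls) and for 1666 with the parallel collections as a random block. Leaving out 1 array gave 1175 to 1630 for Notch, 1368 to 1581 for control, 1234 to 1548 for Ras and 1405 to 1787 for Notch plus Ras. The difference from control was called for 153 genes with array weights, 142 with a replicate block by number and 222 with the parallel block, and for 59 to 113 without 1 array. Against Ras these counts were 188, 193 and 312, with 55 on the arrays compared alone and 65 to 246 without 1 array. Control rises that differed numbered 87 with array weights, 76 and 111 with the blocks by number and by parallel collection, and 30 to 72 without 1 array. Control falls that differed numbered 8 with centring, 32 with array weights, 31 and 45 with those blocks, and 8 to 20 without 1 array. Control falls also called in Notch embryos were 243 on the arrays compared alone and 315 to 373 without 1 array, and rises 565 to 716. Those not called were 218 to 439 and 224 to 493. After quantile normalisation the share of rises among calls was 46.6% in control, 44.2% in Ras and 50.2% in Notch plus Ras embryos; without the filter on dim probe sets it was 47.1% in Ras embryos. The cause of these shifts was not tested. With 3 arrays per group, changes near 0.5 log2 units were often missed in simulated data, and levels under 5 carry little information on size.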
